A study of Mus musculus with 12 samples.

Results

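Embryoid bodies formed by CD47 null cells, labelled as lung endothelial, were compared here with such cells grown as a monolayer, across all measured genes. Of the 12 arrays of the series, each measuring the RNA of 1 mouse cell sample, the 6 of these 2 groups were used: 3 labelled as embryoid bodies (null_EB) and 3 labelled as CD47 null endothelial cells (null_EC). The other arrays, 3 of wild-type lung endothelial cells (WT_EC) and 3 of the embryonic stem cell line V6.5 (ESC), serve as reference levels. Both groups compared carry the same genotype, CD47 null on C57Bl/6, and both are labelled as coming from lung endothelium. The null_EC cells grew in Endothelial Growth Medium-2. For null_EB, null cells that had been passaged for 6 months were put into endothelial basal medium lacking serum, where the bodies came up within 24 to 36 h. ESC were kept in 15% serum with LIF, the cytokine that holds mouse stem cells undifferentiated, at 1000 IU/ml. Medium, serum, growth form and, since a passage time is given for null_EB alone, perhaps passage all differ between null_EB and null_EC, and their parts cannot be told apart. The labels do not say whether the 3 arrays of a group came from separate cultures or animals, so the p-values measure the spread between these samples, which may be technical.

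CD47 is a cell surface receptor for thrombospondin-1, a matrix protein that restrains vessel growth, and for SIRP alpha, through which it tells phagocytes to spare a cell. Embryoid bodies are free-floating cell aggregates, best known from embryonic stem cells, in which the germ layers can arise. Attached endothelial cells read their matrix through integrins and the actin cytoskeleton, and serum supplies them with growth factors and lipids, so genes of adhesion, matrix, signalling, the cell cycle and lipid synthesis were grouped into lists beside markers of cell identity.

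Values are log2 signals, and differences are null_EB minus null_EC on the log2 scale. Errors of group means are SDs (n = 3 arrays), and a gene was called at a limma adjusted p below 0.05 over all 19938 genes. Arrays correlated across probe sets, which are not independent replicates, at 0.994 to 0.997 within the groups and at 0.986 to 0.991 between them. The first principal component held 78.9% of the variance and separated the groups, from -23.7 to -20.8 on null_EC and from 18.3 to 23.6 on null_EB. Array null_EB 1 stood apart along the next one (9.16% of the variance, at -14.5). Across genes the median SD was 0.0652 for null_EC and 0.0770 for null_EB. Low signal stands for a mean under 8.01, which is the overall median, in both groups, since no detection calls were analysed here.

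Many genes differed between monolayer and embryoid body, most of them by little. Of 19938 genes, 5464 were called (27.4%), 3000 of them higher in null_EB (15.0% of all genes) and 2464 lower (12.4%). Among the called genes 4405, or 80.6%, differed by less than 1.5-fold, and the median size of a called difference was 0.336 on the log2 scale. At least 2-fold higher were 118 genes (0.592%), and 229 were at least 2-fold lower (1.15%). At least 4-fold differences were found for 12 genes higher and 33 lower. Rises were the more frequent calls, while falls were the more frequent among genes at least 2-fold apart. Of the 9772 genes with low signal in both groups, 951 were called. The groups did not overlap for 8192 of all genes (41.1%) and for 5409 of the called ones, so lack of overlap does not set a called gene apart.

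The median difference of all genes was -0.0056. A list of 15 housekeeping genes had a median of -0.11, and shifting the arrays to equal housekeeping medians moved the median of all genes to 0.107. The number of called genes was then 5385, but 4108 were higher and 1277 lower, so that 76.3% of calls were higher against 54.9% without the shift. Small differences are therefore relative to the median of all genes, and the shift adds the same 0.11 to every one of them. The housekeeping median itself was -0.17 without null_EB 1 and -0.06 without null_EB 3. In the 229 genes at least 2-fold lower, null_EB 1 had the smallest change for 192, and the median change was -1.25 on null_EB 1, -1.46 on null_EB 2 and -1.46 on null_EB 3. In the 118 genes at least 2-fold higher the medians were 1.37, 1.34 and 1.26. Pooling the error over all 12 arrays left 1077 called genes. Of 217 called genes that fall under the naming rule, 91 were called in that fit, 199 without each of the 6 arrays in turn, and 0 changed sign under any alternative.

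**Figure D1:**
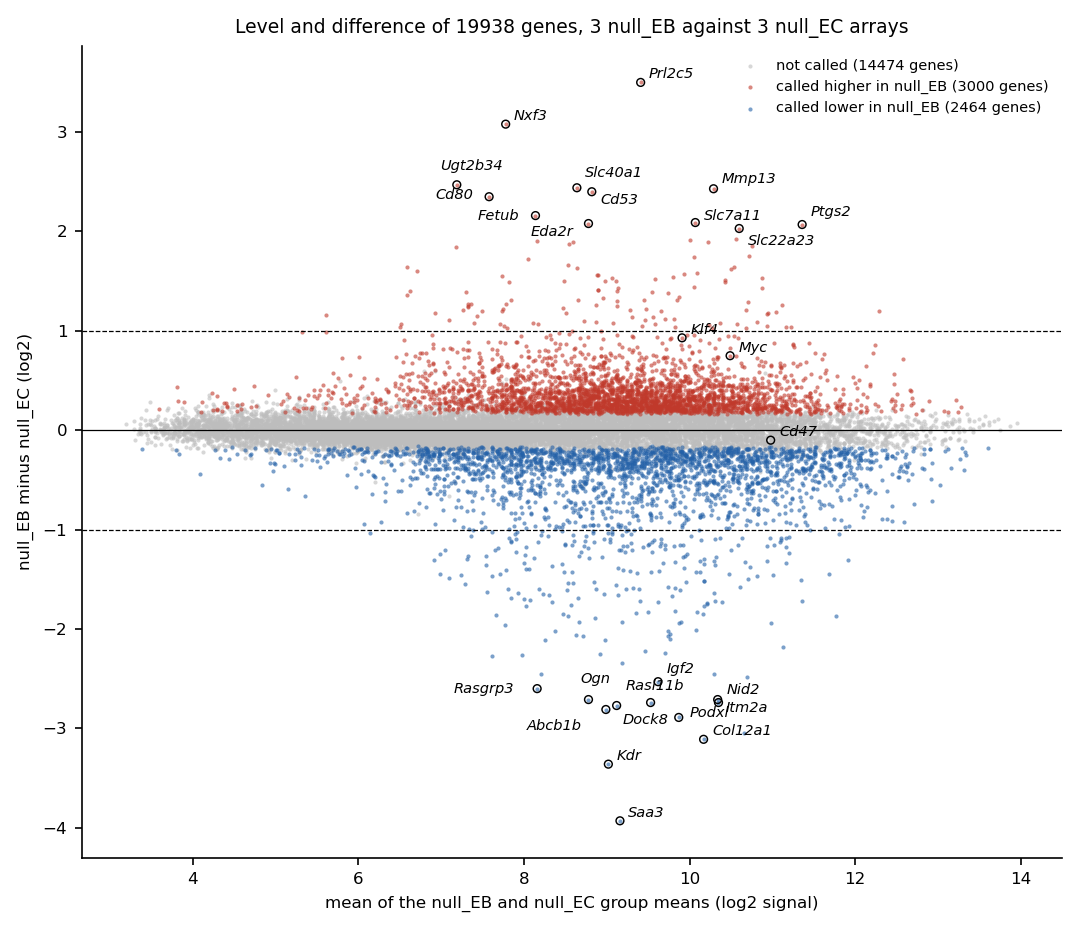
Each point is 1 of 19938 genes, with the mean of the null_EC and null_EB levels (log2 signal) along the x axis and the difference null_EB minus null_EC (log2) along the y axis. Red and blue points are the 3000 genes called higher and the 2464 called lower, grey points were not called, dashed lines mark 2-fold, and the open rings with names mark the 12 largest increases and 12 largest decreases under the naming rule together with Cd47, Myc and Klf4.

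The largest increase was that of Prl2c5, which encodes a secreted hormone of the prolactin family made by the placenta. Its signals were 7.46, 7.70 and 7.79 on the null_EC arrays and 11.12, 11.15 and 11.20 on the null_EB arrays (log2 3.50, SE 0.0821, adjusted p = 9.83e-09). Prl2c5 has near-identical neighbours in its family, so the probe set may read several of them. Nxf3, a member of the family of RNA export factors, followed with 6.45, 6.06 and 6.22 on the null_EC arrays and 9.21, 9.34 and 9.41 on the null_EB arrays (log2 3.08, SE 0.096, adjusted p = 3.93e-08). Both genes were separated between the groups by far more than the spread of either. Slc40a1, ferroportin, the exporter that releases iron from cells, had 7.68, 7.43 and 7.16 on the null_EC arrays and 9.72, 9.92 and 9.93 on the null_EB arrays (log2 2.44, SE 0.116, adjusted p = 4.42e-07). The other large increases were those of the glucuronosyltransferase gene Ugt2b34 (2.47), of the collagenase gene Mmp13 (2.43), of the leukocyte membrane genes Cd53 (2.40) and Cd80 (2.35), of Fetub (2.16), a protease inhibitor of the fetuin family, of Slc7a11 (2.09), the cystine importer, of Eda2r (2.08), a receptor of the tumour necrosis factor family that p53 induces, of Ptgs2 (2.07), the inducible cyclooxygenase, and of the transporter gene Slc22a23 (2.03). Cd80 has a further probe set, at which the difference was 0.83 (adjusted p = 0.000814). The groups did not overlap for any of these 12 genes, which the rule required. The general leukocyte marker Ptprc was not called (log2 0.03, SE 0.065, adjusted p = 0.809), and 0 of the 23 measured genes of the immune cells list were called, 21 of them with low signal in both groups. The median of that list, -0.02, turned to 0.09 with the housekeeping shift, which gave 1 higher call. With the error pooled over all 12 arrays the calls of Fetub, Mmp13 and Slc7a11 were lost.

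Saa3, an acute phase apolipoprotein that inflammation induces, fell the most, 15.3-fold. Its signals were 11.23, 10.92 and 11.22 on the null_EC arrays and 6.99, 7.23 and 7.35 on the null_EB arrays (log2 -3.93, SE 0.106, adjusted p = 1.58e-08). Kdr, the main receptor for vascular endothelial growth factor on endothelium, was next with 10.83, 10.74 and 10.52 on the null_EC arrays and 7.35, 7.26 and 7.40 on the null_EB arrays (log2 -3.36, SE 0.0823, adjusted p = 9.83e-09), which took it from a high level to low signal. Col12a1, a collagen that sits on the surface of collagen fibrils, had 11.72, 11.78 and 11.67 on the null_EC arrays and 8.97, 8.45 and 8.42 on the null_EB arrays (log2 -3.11, SE 0.125, adjusted p = 1.69e-07). Podxl, a sialomucin of the free surface of endothelial, mesothelial and kidney cells, had 11.48, 11.28 and 11.19 on the null_EC arrays and 8.56, 8.34 and 8.38 on the null_EB arrays (log2 -2.89, SE 0.0859, adjusted p = 3.42e-08). The other large decreases were those of Abcb1b (-2.81), a drug efflux pump with a close paralog that the probe set may also read, of Dock8 (-2.77) and Rasgrp3 (-2.60), activators of small GTPases, of Rasl11b (-2.74), itself a small GTPase, of Nid2 (-2.74), a basement membrane linker, of Itm2a (-2.71), of Ogn (-2.71), a small matrix proteoglycan, and of Igf2 (-2.53), a fetal growth factor. On every null_EB array each of these 12 genes lay below all null_EC arrays, as the rule required. Among these the call of Igf2 was lost in the fit of all 12 arrays.

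The endothelial label was checked on 46 measured genes of endothelial identity. Of these, 28 had low signal in both groups, among them the defining junction genes Pecam1 (6.59 ± 0.0187 in null_EC, 6.56 ± 0.0307 in null_EB) and Cdh5 (7.16 ± 0.0946 and 7.05 ± 0.04), as well as Tek, Tie1, Erg, Emcn and Vwf, so most endothelial markers were low already in the monolayer. Kdr, Podxl, Thbd and Cd34 were well above that in null_EC and fell, while other list genes with more than low signal rose. In the fit of genes above the median signal in either group, 6 of 18 list genes were called higher and 9 lower. The WT_EC means were 8.82 ± 0.46 for Kdr, 8.33 ± 0.39 for Podxl and 10.62 ± 0.316 for Thbd, each below null_EC. Podxl in null_EB, at 8.42 ± 0.117, lay near its WT_EC level. As RNA came from whole samples, fewer cells of a type and less RNA per cell cannot be told apart. Thbd, thrombomodulin, which keeps the vessel surface free of clots, fell 5.57-fold, from 11.94 ± 0.0742 to 9.46 ± 0.203 (adjusted p = 1.2e-07), and Cd34, a sialomucin of endothelial and progenitor cells, from 11.05 ± 0.187 to 10.36 ± 0.32 (adjusted p = 0.00512). Over the list 6 were called higher and 11 lower, with a median of -0.05. Leaving out 1 array moved the counts by more than 1.5 times, to 7 lower without null_EC 3. At equal housekeeping medians 6 were higher and 5 lower, and the list's median turned to 0.06. Calcrl, the receptor that binds adrenomedullin when joined with a Ramp partner, went the other way with 7.41, 6.88 and 7.35 on the null_EC arrays and 9.09, 9.19 and 9.04 on the null_EB arrays (log2 1.90, SE 0.121, adjusted p = 2.46e-06). Flt1, a decoy receptor for vascular endothelial growth factor, rose by 0.58 and Procr, the endothelial protein C receptor, by 0.57. The growth factor itself, Vegfa, rose by 0.45 and its coreceptor Nrp1 by 0.69. Of these receptors Kdr therefore fell while Flt1 and the coreceptor Nrp1 rose. The calls of Cd34, Flt1, Nrp1, Procr and Vegfa were lost when the error was pooled over the 12 arrays.

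Markers of other cell types that a lung culture can hold were read beside these. Mesothelium, the cell sheet that covers the lung, was the marker list with the largest median difference, -0.74, with 0 of 13 measured genes higher and 10 lower. Its medians relative to the null_EC mean were -0.03, 0.06 and -0.02 on the null_EC arrays and -0.67, -0.78 and -0.76 on the null_EB arrays. Several of its genes were among the high signals of both groups. Upk3b, a uroplakin, was at 13.05 ± 0.0129 in null_EC and 12.13 ± 0.11 in null_EB (log2 -0.92, SE 0.0654, adjusted p = 4.88e-06), and Wt1, a transcription factor of mesothelium and kidney, had 11.37, 11.49 and 11.41 on the null_EC arrays and 10.75, 10.64 and 10.66 on the null_EB arrays (log2 -0.74, SE 0.06, adjusted p = 1.16e-05). Muc16, a surface mucin, fell 4.77-fold to low signal, with 10.05, 10.07 and 10.03 on the null_EC arrays and 7.95, 7.72 and 7.72 on the null_EB arrays (adjusted p = 4.15e-08), and Lrrn4 (-1.72), Rspo1 (-1.75), Upk1b (-0.91), Cdh3 (-1.27) and Bnc1 (-0.44) fell too. Msln, mesothelin, did not pass the test (12.14 ± 0.098 in null_EC and 12.01 ± 0.0618 in null_EB, log2 -0.13, SE 0.0666, adjusted p = 0.196). Of 31 fibroblast and smooth muscle genes 0 were called higher and 11 lower (median -0.24), led by Myl9 (-1.43), Cnn1 (-1.17), Loxl1 (-1.10) and Col1a1 (-0.86), which encode contractile proteins, a collagen crosslinking enzyme and the main fibrillar collagen. That median was -0.15 without null_EC 2, whose list median of 0.13 stood above the other null_EC arrays, and -0.12 with the housekeeping shift. Lung epithelium had 0 higher and 3 lower of 20 (median -0.03) with 16 at low signal, and only the keratin gene Krt14 (-0.87) among those called had more than low signal. The counts moved by more than 1.5 times on leaving out 1 array, to 1 lower without null_EC 3. Scaled to the housekeeping genes, the list had 0 higher and 1 lower, and the list's median turned to 0.08. Of 9 lymphatic endothelium genes 0 were called higher and 3 lower, among them Pdpn (-0.47), podoplanin. The part of these marker changes in other results was not tested. In the fit of all 12 arrays the calls of Bnc1, Cdh3, Cnn1, Krt14, Pdpn, Upk1b and Upk3b were lost.

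**Figure D2:**
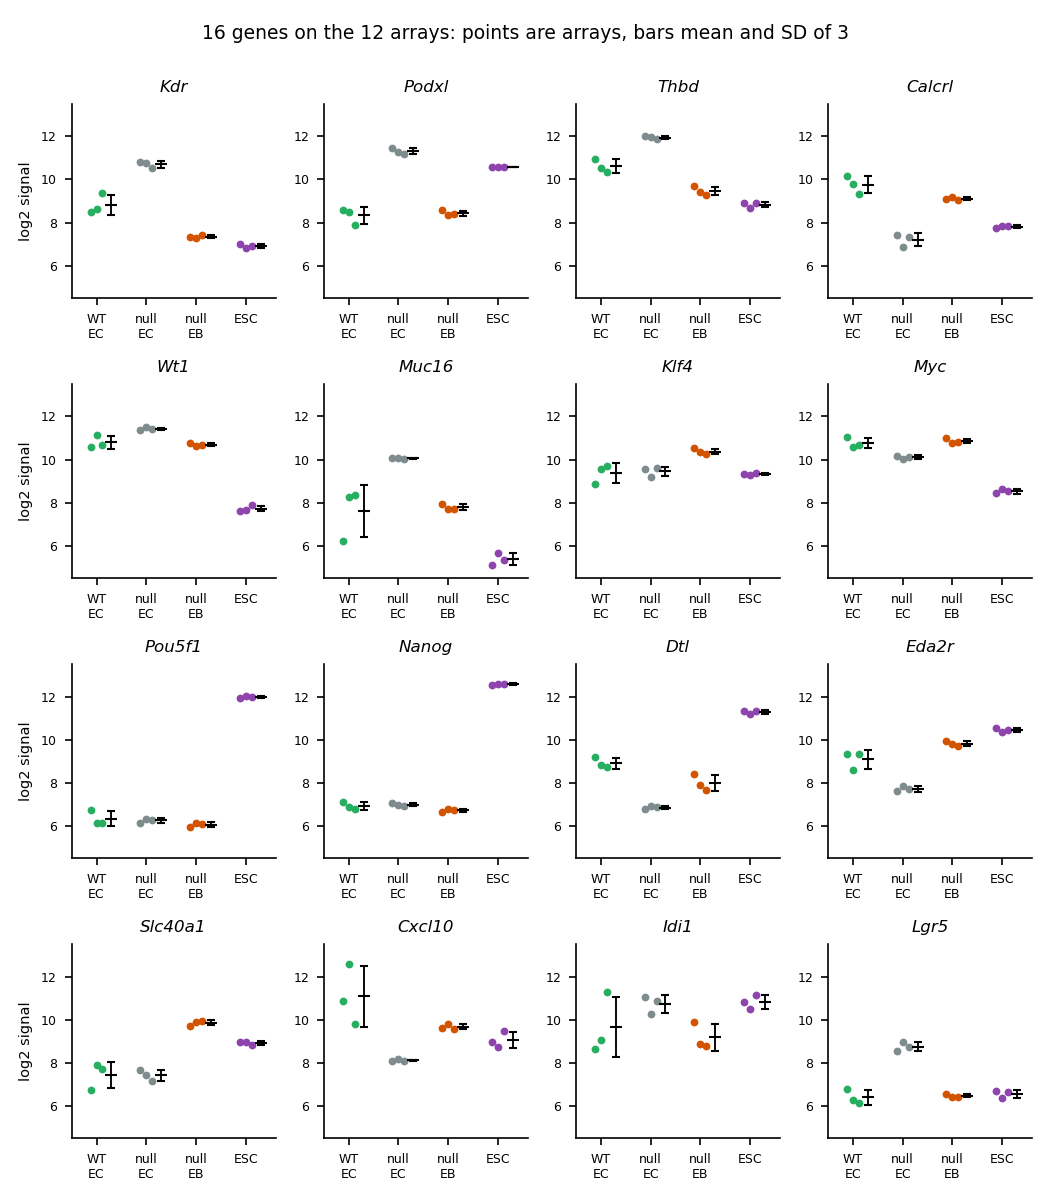
Each panel gives the log2 signal of 1 gene (y axis) on the 12 arrays, 3 in each of the groups WT_EC, null_EC, null_EB and ESC (x axis), as points, with the mean and SD of each group as a bar beside them. Kdr, Podxl, Thbd, Wt1, Muc16, Idi1 and Lgr5 are lower on the null_EB than on the null_EC arrays, Calcrl, Klf4, Myc, Dtl, Eda2r, Slc40a1 and Cxcl10 are higher, and Pou5f1 and Nanog stand low on both and high on the ESC arrays.

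The series title names stem cell transcription factors, so these were read next. Pou5f1, Sox2 and Nanog, the core factors of pluripotency, had low signal in both groups. Pou5f1 had 6.14, 6.34 and 6.25 on the null_EC arrays and 5.93, 6.14 and 6.08 on the null_EB arrays (log2 -0.19, SE 0.0744, adjusted p = 0.0819), and Sox2 6.21, 6.43 and 6.42 on the null_EC arrays and 6.22, 6.26 and 6.28 on the null_EB arrays (log2 -0.10, SE 0.0692, adjusted p = 0.346). Nanog had 7.06, 6.98 and 6.93 on the null_EC arrays and 6.65, 6.77 and 6.74 on the null_EB arrays (log2 -0.26, SE 0.0608, adjusted p = 0.00881). The call of Nanog, at low signal, was lost with equal housekeeping medians and with all 12 arrays. In ESC the same probe sets read 11.97 ± 0.0394, 11.02 ± 0.301 and 12.58 ± 0.0347. The null_EB arrays all lay far below the ESC arrays for each of these genes.

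Klf4 and Myc, the other reprogramming factors, rose. Klf4, a zinc finger factor, had 9.54, 9.20 and 9.59 on the null_EC arrays and 10.52, 10.33 and 10.27 on the null_EB arrays (log2 0.93, SE 0.104, adjusted p = 0.000111), and Myc, which drives growth and ribosome production, 10.18, 10.02 and 10.14 on the null_EC arrays and 10.98, 10.79 and 10.83 on the null_EB arrays (log2 0.75, SE 0.0707, adjusted p = 3.29e-05). The groups did not overlap for either gene, as for most called genes. The ESC arrays read 9.32 ± 0.0442 for Klf4 and 8.53 ± 0.106 for Myc, below null_EB. The WT_EC arrays read 9.37 ± 0.452 for Klf4, near null_EC, and 10.77 ± 0.252 for Myc, near null_EB. Of 40 measured genes of the pluripotency network 4 were called higher and 7 lower (median -0.06), and 30 had low signal in both groups. On leaving out 1 array the counts became 2 higher without null_EC 2, 2 higher without null_EC 3 and 2 higher without null_EB 2. Equal housekeeping medians gave 4 higher and 4 lower, and the list's median turned to 0.05. Alpl, the alkaline phosphatase that stains stem cell colonies, fell, with 9.14, 9.96 and 9.29 on the null_EC arrays and 7.83, 7.43 and 7.52 on the null_EB arrays (log2 -1.87, SE 0.184, adjusted p = 4.47e-05), as did Mycn (-0.55) and Tfcp2l1 (-0.52), while the telomerase gene Tert (0.54) rose. A fit of all 12 arrays lost the call of Tfcp2l1.

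Markers of the germ layers, which form in embryoid bodies of stem cells, were read next. Of 25 ectoderm and neural genes 0 were called higher and 4 lower (median -0.09), of 26 mesoderm genes 2 were called higher and 6 lower (median -0.09), and of 20 endoderm genes 1 was called higher and 2 lower (median -0.09). Low signal in both groups was found for 19 of the ectoderm and neural genes, 12 of the mesoderm genes and 14 of the endoderm genes. The share of higher calls was below that of all genes (15.0%) in each list. The share of lower calls was below that of all genes (12.4%) in endoderm and above it in the ectoderm and mesoderm lists. Genes of low signal in both groups were called less often (951 of 9772), so a share also depends on how many members have low signal. In a fit of genes above the median signal in either group, 2927 of 10177 were called higher and 2244 lower. In that fit 0 of 6 ectoderm and neural genes were higher and 3 lower. Of 14 mesoderm genes 2 were higher and 7 lower, and of 6 endoderm genes 1 was higher and 3 lower. These shares were not tested. For the ectoderm and neural genes, leaving out null_EC 2 gave 2 lower and leaving out null_EB 1 gave 1 higher. The housekeeping shift left 2 lower calls in that list, 2 higher and 6 lower in mesoderm and 1 higher and 2 lower in endoderm, and turned the medians to 0.03, 0.02 and 0.02. Snai2, a repressor active in mesoderm and neural crest migration, rose 2.97-fold, with 9.27, 9.09 and 9.09 on the null_EC arrays and 10.78, 10.72 and 10.65 on the null_EB arrays (log2 1.57, SE 0.0682, adjusted p = 2.39e-07), and the forkhead gene Foxa2 (0.39) and the T-box gene Tbx6 (0.35) rose by less. Foxf1, a forkhead factor of lung mesenchyme, fell by 0.95 on the log2 scale, and Ncam1 (-0.77), Pdgfra (-0.70) and Gata4 (-0.43) fell as well. Of 37 Hox genes, which pattern the body axis, 1 was called higher and 12 lower (median -0.08). Without 1 array the counts were 6 lower without null_EC 2 and 7 lower without null_EB 2. After the housekeeping shift 1 higher and 3 lower calls were left, and the list's median turned to 0.03. With the error pooled over all 12 arrays the calls of Foxa2, Foxf1, Gata4, Ncam1, Pdgfra and Tbx6 were lost.

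Genes of DNA replication rose together in null_EB. Of 43 measured, 29 were called higher and 1 lower, with a median of 0.34, and the list's medians per array were -0.01, 0.04 and -0.04 on the null_EC arrays and 0.43, 0.26 and 0.28 on the null_EB arrays. Low signal in both groups was found for 13 of them, among these Dtl, Pole and Prim1. In a fit of genes above the median signal in either group, 20 of 30 list genes were higher and 1 lower (median 0.305). Leaving out 1 array moved the counts by more than 1.5 times, to 0 lower without null_EC 1, 0 lower without null_EC 2, 3 lower without null_EB 1, 0 lower without null_EB 2 and 0 lower without null_EB 3. The housekeeping shift left 33 higher and 0 lower calls. Dtl, the adaptor by which licensing factors are destroyed once replication has begun, had 6.77, 6.91 and 6.88 on the null_EC arrays and 8.40, 7.91 and 7.68 on the null_EB arrays (log2 1.15, SE 0.146, adjusted p = 0.000254), and Uhrf1, which carries DNA methylation through replication, 7.37, 7.27 and 7.18 on the null_EC arrays and 8.22, 8.10 and 7.93 on the null_EB arrays (log2 0.81, SE 0.0814, adjusted p = 5.18e-05). Both were highest on null_EB 1, and every null_EB array lay above all null_EC arrays. Genes of the replicative helicase rose moderately, Mcm7 (0.65), Mcm3 (0.50) and Mcm6 (0.48), as did the polymerase and primase genes Pole (0.89), Pola2 (0.75) and Prim1 (0.82), the clamp gene Pcna (0.51) and the S phase cyclin gene Ccne2 (0.78). Rrm2, the regulated subunit of the enzyme that makes deoxynucleotides, was not called (log2 -0.39, SE 0.196, adjusted p = 0.182). Among these the calls of Ccne2, Mcm3, Mcm6, Mcm7, Pcna, Pole, Prim1 and Uhrf1 were lost in the fit of all 12 arrays. Over the whole list that fit called 2 of 43 genes higher and 0 lower.

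E2F factors switch on replication genes at the start of S phase through sites in their promoters. The 8-letter forms TTTCGCGC or TTTGGCGC were looked for on both strands of RefSeq promoter windows (build GRCm38.p6), 300 bases from 250 before the start, which 15614 of the genes had. At least 1 match was found in 13 of 37 replication genes with a window (35.1%), against 1.31% of all genes. Of those 13, 11 were called higher and 0 lower (median 0.50). Of the 24 without a match, 14 were higher and 1 lower (median 0.24). The stretches before the start around the match are shown for the 4 called genes with the largest difference that have one there, to show where the letters stand. The match is in capitals, read 5′ to 3′ on the gene's strand.
Dtl: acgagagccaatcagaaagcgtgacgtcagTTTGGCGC
Uhrf1: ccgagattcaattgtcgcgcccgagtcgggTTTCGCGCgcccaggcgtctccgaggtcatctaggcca
Rfc3: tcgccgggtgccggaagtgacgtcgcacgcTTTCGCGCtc
Pola1: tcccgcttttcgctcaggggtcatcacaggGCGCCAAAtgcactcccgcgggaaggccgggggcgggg
They lie at chr1:191575545-191575582 (minus strand) for Dtl, chr17:56304098-56304165 (plus strand) for Uhrf1, chr5:151651209-151651248 (minus strand) for Rfc3 and chrX:93632256-93632323 (minus strand) for Pola1. The differences were Dtl (1.15), Uhrf1 (0.81), Rfc3 (0.61) and Pola1 (0.51). A match describes these letters and says nothing of whether E2F binds there. The calls of Pola1, Rfc3 and Uhrf1 were lost when the error was pooled over the 12 arrays.

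Mitosis genes varied widely among the arrays. Of 46 measured, 17 were called higher and 0 lower (median 0.29), 28 had low signal in both groups, and the list's medians were -0.13, 0.26 and -0.12 on the null_EC arrays and 0.65, 0.21 and 0.15 on the null_EB arrays. Array null_EC 2 lay within the null_EB range, and null_EB 1 was highest, so the groups overlapped over the list. The counts moved by more than 1.5 times on leaving out 1 array, to 6 higher and 1 lower without null_EC 1, 9 higher without null_EC 3 and 11 higher and 1 lower without null_EB 1. At equal housekeeping medians 29 were higher and 0 lower. Mad2l1, of the spindle checkpoint, had 8.61, 8.92 and 8.47 on the null_EC arrays and 9.67, 9.35 and 9.25 on the null_EB arrays (log2 0.76, SE 0.126, adjusted p = 0.00134), and Tpx2 (0.74), of spindle assembly, and Plk1 (0.61), a mitotic kinase, rose as well. Of 19 cell cycle inhibitors and G1 cyclins 6 were called higher and 1 lower (median 0.03). On leaving out 1 array the counts became 3 lower without null_EB 1. Scaled to the housekeeping genes, the list had 6 higher and 0 lower. Ccnd1, cyclin D1, which growth factors induce in G1, had 9.94, 10.07 and 9.93 on the null_EC arrays and 11.29, 10.71 and 10.80 on the null_EB arrays (log2 0.95, SE 0.127, adjusted p = 0.000346), and the antiproliferative gene Btg1 10.52, 10.24 and 10.50 on the null_EC arrays and 11.36, 11.57 and 11.48 on the null_EB arrays (log2 1.05, SE 0.0863, adjusted p = 1.27e-05). Among 43 genes of the Myc target and ribosome biogenesis list, 21 were called higher and 1 lower (median 0.20), led by Utp20 (0.48), Rrp12 (0.47) and Mybbp1a (0.44), factors of ribosomal RNA processing and its control. Without 1 array the counts were 2 lower without null_EB 1 and 13 higher without null_EB 2. Odc1, ornithine decarboxylase, a known Myc target of polyamine synthesis, fell (log2 -0.64, SE 0.109, adjusted p = 0.0015). In the fit of all 12 arrays the calls of Mad2l1, Mybbp1a, Odc1, Plk1, Rrp12, Tpx2 and Utp20 were lost. That fit called 3 of the 46 mitosis genes and 1 of the 43 Myc target and ribosome biogenesis genes higher, with 0 lower in either list.

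Targets of p53, the transcription factor that answers DNA damage and other stress, also rose. Of 27 measured, 17 were called higher and 3 lower (median 0.37), and the list's medians were 0.02, 0.007 and -0.03 on the null_EC arrays and 0.37, 0.37 and 0.31 on the null_EB arrays, with no overlap of the groups. Equal housekeeping medians gave 19 higher and 1 lower. Eda2r had 7.60, 7.87 and 7.73 on the null_EC arrays and 9.96, 9.79 and 9.70 on the null_EB arrays (log2 2.08, SE 0.0863, adjusted p = 1.95e-07). Phlda3, an inhibitor of the survival kinase Akt, had 10.36, 10.43 and 10.30 on the null_EC arrays and 11.64, 11.46 and 11.49 on the null_EB arrays (log2 1.17, SE 0.0669, adjusted p = 1.25e-06), and Zmat3, an RNA binding protein, 9.35, 9.19 and 9.20 on the null_EC arrays and 10.37, 10.30 and 10.43 on the null_EB arrays (log2 1.12, SE 0.0663, adjusted p = 1.54e-06). Tnfrsf10b (0.94), a death receptor, Sesn2 (0.82), an inhibitor of the growth kinase mTORC1, and Mdm2 (0.65), the ligase that degrades p53, rose by less. Sesn1, the sister gene of Sesn2, fell (log2 -0.93, SE 0.127, adjusted p = 0.000382). Of 31 apoptosis genes 7 were called higher and 4 lower (median 0.03), and both the death adaptor Apaf1 (0.56) and the survival gene Bcl2l1 (0.72) rose. Leaving out 1 array moved the counts by more than 1.5 times, to 2 lower without null_EC 2, 7 lower without null_EB 1 and 2 lower without null_EB 2. After the housekeeping shift 8 higher and 1 lower calls were left. A fit of all 12 arrays lost the calls of Mdm2 and Sesn1.

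The list with the largest share of higher calls was the oxidative stress response. Of 36 measured genes, 26 were called higher and 2 lower (median 0.31), with list medians of 0.02, -0.04 and -0.002 on the null_EC arrays and 0.33, 0.32 and 0.33 on the null_EB arrays. Slc7a11 imports the cystine from which glutathione is made and had 9.39, 8.73 and 8.95 on the null_EC arrays and 10.94, 11.27 and 11.14 on the null_EB arrays (log2 2.09, SE 0.147, adjusted p = 4.45e-06). Nqo1, a quinone reductase, had 7.38, 6.87 and 7.30 on the null_EC arrays and 8.93, 9.02 and 8.79 on the null_EB arrays (log2 1.72, SE 0.12, adjusted p = 4.26e-06), and Gstm1, a glutathione transferase, 10.07, 10.13 and 10.12 on the null_EC arrays and 11.61, 11.68 and 11.62 on the null_EB arrays (log2 1.53, SE 0.0543, adjusted p = 7.36e-08). The groups did not overlap for any of these, as for most called genes. Both subunits of the enzyme that starts glutathione synthesis rose, Gclc (0.88) and Gclm (0.65), as did Gsta4 (1.04), Srxn1 (0.71), Hmox1 (0.61) and Pgd (0.78), which detoxify lipid aldehydes, repair peroxiredoxins, degrade haem and supply NADPH. Tfrc, the transferrin receptor for iron uptake, fell (log2 -0.58, SE 0.104, adjusted p = 0.00225) while the iron exporter Slc40a1 rose. Sod2, the mitochondrial superoxide dismutase, fell as well (log2 -0.45, SE 0.0879, adjusted p = 0.00366). Gsr, Gpx1, Gpx4 and Txn1, basic enzymes of the glutathione and thioredoxin systems, were not called (differences of 0.02, 0.04, 0.14 and 0.01). With the error pooled over all 12 arrays the calls of Gclm, Hmox1, Pgd, Slc7a11, Sod2 and Srxn1 were lost, and 7 of the 36 list genes were called higher and 1 lower.

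Interferon response genes rose in null_EB. Of 35 measured, 24 were called higher and 1 lower, the median was 0.36, and the list's medians were -0.07, 0.0 and 0.08 on the null_EC arrays and 0.46, 0.37 and 0.27 on the null_EB arrays. Cxcl10, a chemokine that attracts T cells, had 8.10, 8.16 and 8.10 on the null_EC arrays and 9.64, 9.81 and 9.59 on the null_EB arrays (log2 1.56, SE 0.0675, adjusted p = 2.39e-07). Ifit3, which restrains viral RNA and may not be told apart from a near-identical neighbour gene, had 9.30, 9.87 and 9.84 on the null_EC arrays and 11.21, 11.26 and 11.07 on the null_EB arrays (log2 1.51, SE 0.132, adjusted p = 1.94e-05), and Oas2, which makes the signal that activates RNase L, 9.22, 9.10 and 9.28 on the null_EC arrays and 10.48, 10.55 and 10.58 on the null_EB arrays (log2 1.34, SE 0.0648, adjusted p = 4.82e-07). Rsad2 (1.31), Usp18 (1.21), Irf7 (1.12) and Mx2 (1.11) rose more than 2-fold. Genes encoding the sensors and factors upstream were called at smaller size, Ifih1 (0.47) and Irf9 (0.33). Isg20, an RNA exonuclease, was the gene called lower (log2 -0.61, SE 0.0713, adjusted p = 0.000145). Among these the calls of Cxcl10, Ifih1, Ifit3, Irf7, Irf9, Isg20, Mx2, Oas2, Rsad2 and Usp18 were lost in the fit of all 12 arrays. No call of the list was left in that fit, with 0 of 35 genes higher and 0 lower.

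Interferon acts through response elements in promoters, of which the core TTTCNNTTT was looked for on both strands, a motif added after the data had been seen. It was present in 17 of 28 interferon genes with a promoter window (60.7%), against 11.1% of all genes. Of the 17, 13 were called higher and 1 lower (median 0.38), and of the 11 others 6 were higher and 0 lower (median 0.22). Shown are the stretches before the start, with matches in capitals, of the 4 called genes with the largest difference that hold one, since Cxcl10 and Ifit3 led the list.
Cxcl10: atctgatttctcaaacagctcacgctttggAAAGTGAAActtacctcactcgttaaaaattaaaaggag
Ifit3: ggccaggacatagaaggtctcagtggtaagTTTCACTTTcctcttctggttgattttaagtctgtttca
Rsad2: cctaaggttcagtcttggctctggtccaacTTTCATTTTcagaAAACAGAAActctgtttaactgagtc
Gbp3: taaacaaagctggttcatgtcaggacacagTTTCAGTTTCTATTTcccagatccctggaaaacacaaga
These lie, in GRCm38.p6 of RefSeq, at chr5:92349063-92349131 (minus strand) for Cxcl10, chr19:34583343-34583411 (plus strand) for Ifit3, chr12:26456534-26456602 (minus strand) for Rsad2 and chr3:142559969-142560037 (plus strand) for Gbp3. In Rsad2 and Gbp3 the letters matched at 2 places, which overlap in Gbp3, and a further match of Ifit3 lies outside the stretch shown. The differences were Cxcl10 (1.56), Ifit3 (1.51), Rsad2 (1.31) and Gbp3 (0.80). The calls of Cxcl10, Gbp3, Ifit3 and Rsad2 were lost when the error was pooled over the 12 arrays.

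Inflammatory genes moved both ways. Of 41 cytokine, chemokine and acute phase genes 13 were called higher and 9 lower (median -0.001). The housekeeping shift left 14 higher and 7 lower calls, and the list's median turned to 0.11. Saa3, of the acute phase, fell the most. Hp, haptoglobin, which binds free haemoglobin, had 9.34, 9.24 and 9.36 on the null_EC arrays and 7.06, 7.35 and 7.19 on the null_EB arrays (log2 -2.11, SE 0.0774, adjusted p = 8.84e-08), and Lcn2, lipocalin-2, which withholds iron from bacteria, 8.52, 9.15 and 8.60 on the null_EC arrays and 6.96, 6.69 and 6.73 on the null_EB arrays (log2 -1.96, SE 0.144, adjusted p = 5.86e-06). Ptgs2, which starts prostaglandin synthesis, rose 4.2-fold, with 10.38, 10.41 and 10.19 on the null_EC arrays and 12.32, 12.45 and 12.42 on the null_EB arrays (log2 2.07, SE 0.0711, adjusted p = 5.93e-08), whereas Ptges, which makes prostaglandin E2 from its product, fell (log2 -1.23, SE 0.118, adjusted p = 3.58e-05). Vcam1, an adhesion molecule for leukocytes, rose 2.3-fold (adjusted p = 1.83e-06), together with Nfkbiz (0.85), Cx3cl1 (0.67) and Cxcl12 (0.51). The alarmin Il33 (-1.69) fell. In the fit of all 12 arrays the calls of Cxcl12 and Ptges were lost.

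Cholesterol synthesis had the largest share of lower calls of any list. Of 26 measured genes 0 were called higher and 21 lower, with a median of -0.70. The list's medians were 0.24, -0.39 and 0.11 on the null_EC arrays and -0.48, -0.74 and -0.75 on the null_EB arrays, so null_EC 2 lay below the other null_EC arrays and close to null_EB 1. Idi1, of isoprenoid synthesis, had 11.05, 10.28 and 10.86 on the null_EC arrays and 9.92, 8.89 and 8.78 on the null_EB arrays (log2 -1.53, SE 0.276, adjusted p = 0.00218). Sqle, squalene epoxidase, a controlled step of the pathway, had 11.76, 11.10 and 11.66 on the null_EC arrays and 10.77, 10.25 and 10.25 on the null_EB arrays (log2 -1.08, SE 0.176, adjusted p = 0.00119), and Hmgcs1, the synthase that feeds the pathway, 11.62, 10.86 and 11.40 on the null_EC arrays and 10.59, 10.25 and 10.22 on the null_EB arrays (log2 -0.94, SE 0.169, adjusted p = 0.00214). Msmo1 (-0.95), Lss (-0.89), Cyp51 (-0.80) and Fdps (-0.78), further enzymes of the pathway, fell with them, as did Abca1 (-0.80), the pump that exports cholesterol. Of 30 fatty acid genes 5 were called higher and 14 lower (median -0.12). The desaturases Fads2 (-1.31) and Scd2 (-0.74) fell, while Plin2 (0.86), Angptl4 (0.80) and Pdk4 (0.62), which coat lipid droplets, block lipoprotein lipase and turn glucose away from oxidation, rose. The counts moved by more than 1.5 times on leaving out 1 array, to 3 higher without null_EC 3. The motif TCACNCCAC, one form of the sterol element that SREBP binds, was found in 1 of 21 cholesterol genes with a window, Hmgcs1 (1.4% of all genes).
Hmgcs1: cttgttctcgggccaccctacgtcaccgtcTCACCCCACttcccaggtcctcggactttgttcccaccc
This stretch lies at chr13:119690184-119690252 (plus strand) for Hmgcs1, with the motif in capitals. A fit of all 12 arrays lost the calls of Angptl4, Cyp51, Fdps, Hmgcs1, Idi1, Lss, Msmo1 and Pdk4, and called 2 of the 26 cholesterol genes lower and 0 higher.

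More hypoxia and glycolysis genes fell than rose. Of 41 measured 5 were called higher and 22 lower (median -0.26). Slc2a3, a high-affinity glucose transporter, had 11.33, 11.14 and 11.15 on the null_EC arrays and 9.92, 9.71 and 9.64 on the null_EB arrays (log2 -1.45, SE 0.0843, adjusted p = 1.36e-06), and Egln3, an oxygen sensor that hypoxia itself induces, 11.96, 12.07 and 11.85 on the null_EC arrays and 10.94, 10.94 and 11.01 on the null_EB arrays (2.0-fold lower, adjusted p = 3.53e-06). Egln1, Car9 and P4ha2, further genes under hypoxia factors, fell by 0.76, 0.69 and 0.71 on the log2 scale. Vegfa and Hilpda, also targets of these factors, rose by 0.45 and 0.73. Glycolytic enzymes with high signal gave small differences, and Ldha, Aldoa and Pkm were not called (-0.10, 0.07 and -0.01). The core hypoxia element ACGTGC lay in the window of 19 of 35 list genes (54.3%), against 7.74% of all. Of these 19, 2 were called higher and 11 lower (median -0.26), and of the 16 others 3 were higher and 6 lower (median -0.10). Stretches with the element in capitals are shown for 1 gene that rose and 3 that fell, as the motif stood in both.
Hilpda: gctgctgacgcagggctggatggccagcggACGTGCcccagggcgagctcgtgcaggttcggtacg
Egln1: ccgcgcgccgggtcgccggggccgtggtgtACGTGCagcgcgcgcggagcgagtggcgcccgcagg
P4ha2: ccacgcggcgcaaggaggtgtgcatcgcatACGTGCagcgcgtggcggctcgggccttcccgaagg
Car9: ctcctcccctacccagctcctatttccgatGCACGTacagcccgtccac
They lie, in GRCm38.p6 of RefSeq, at chr6:29272553-29272618 (plus strand) for Hilpda, chr8:124949287-124949352 (minus strand) for Egln1, chr11:54100816-54100881 (plus strand) for P4ha2 and chr4:43506977-43507025 (plus strand) for Car9. Car9 carries the reverse complement. With the error pooled over all 12 arrays the calls of Car9, Egln1, Egln3, Hilpda, P4ha2 and Vegfa were lost, and 1 of the 41 list genes was called higher and 2 lower.

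Genes of the unfolded protein response, which expands the folding capacity of the endoplasmic reticulum, were called lower in 18 of 29 cases and higher in 1 (median -0.22). On leaving out 1 array the counts became 11 lower without null_EC 3. At equal housekeeping medians 1 were higher and 9 lower. Creld2 had 11.77, 12.18 and 12.21 on the null_EC arrays and 11.56, 11.29 and 11.08 on the null_EB arrays (log2 -0.74, SE 0.136, adjusted p = 0.00237), and the chaperone partners Dnajb11 (-0.68), Dnajc3 (-0.60) and Sdf2l1 (-0.57) fell with it. Of 39 genes of the amino acid stress response 9 were called higher and 5 lower (median -0.001). Atf3, a stress factor, rose by 0.69, while Vldlr (-0.71) and Cth (-0.38), a lipoprotein receptor and an enzyme of cysteine synthesis, fell. Without 1 array the counts were 3 lower without null_EC 1 and 10 lower without null_EC 2. Scaled to the housekeeping genes, the list had 12 higher and 2 lower, and the list's median turned to 0.11. Of 42 genes of oxidative phosphorylation 4 were called higher and 8 lower (median -0.04). Leaving out 1 array moved the counts by more than 1.5 times, to 1 higher and 3 lower without null_EC 1, 2 higher and 3 lower without null_EC 2, 2 higher and 0 lower without null_EC 3, 1 higher and 1 lower without null_EB 2 and 2 lower without null_EB 3. Equal housekeeping medians gave 6 higher and 0 lower, and the list's median turned to 0.07. Ppargc1a, the coactivator that drives mitochondrial gene expression, rose at low signal (log2 0.72, SE 0.0905, adjusted p = 0.000241). Among these the calls of Creld2, Cth, Dnajc3, Sdf2l1 and Vldlr were lost in the fit of all 12 arrays. Of the 29 unfolded protein response genes that fit called 0 higher and 2 lower.

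**Figure D3:**
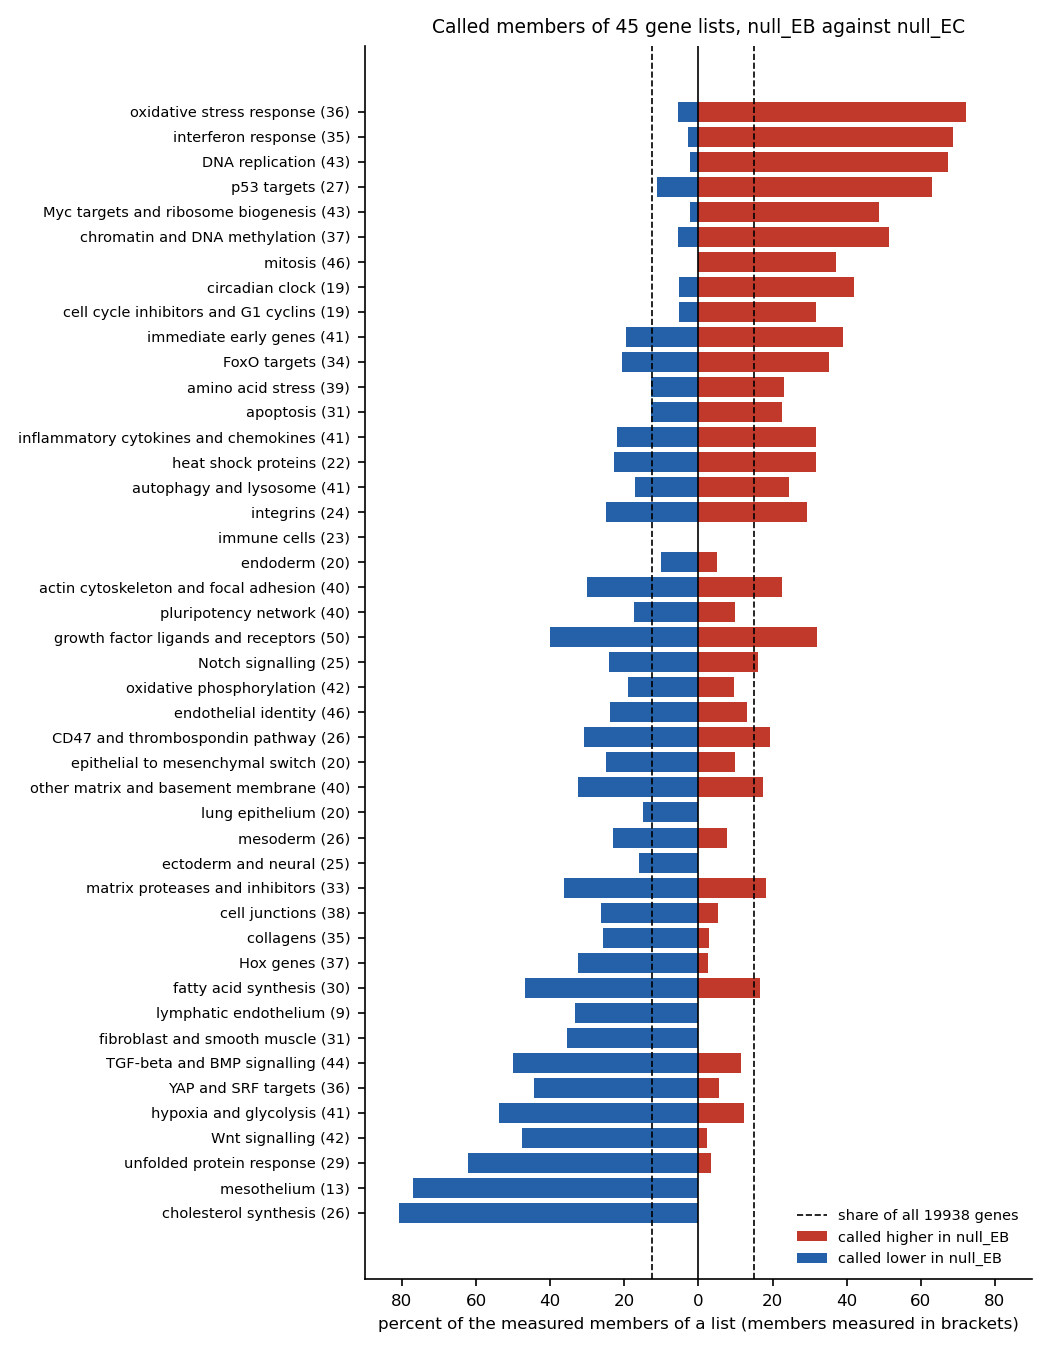
Bars give, for 45 gene lists (rows, with the number of measured members in brackets), the percent of members called higher (red, to the right) and lower (blue, to the left) in null_EB against null_EC. Dashed lines mark the shares of all 19938 genes, 15.0% higher and 12.4% lower, and the lists run from oxidative stress response, with 72.2% higher, to cholesterol synthesis, with 80.8% lower. All genes include 9772 of low signal in both groups, of which only 951 were called, and the lists differ in how many such genes they hold.

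**Figure D4:**
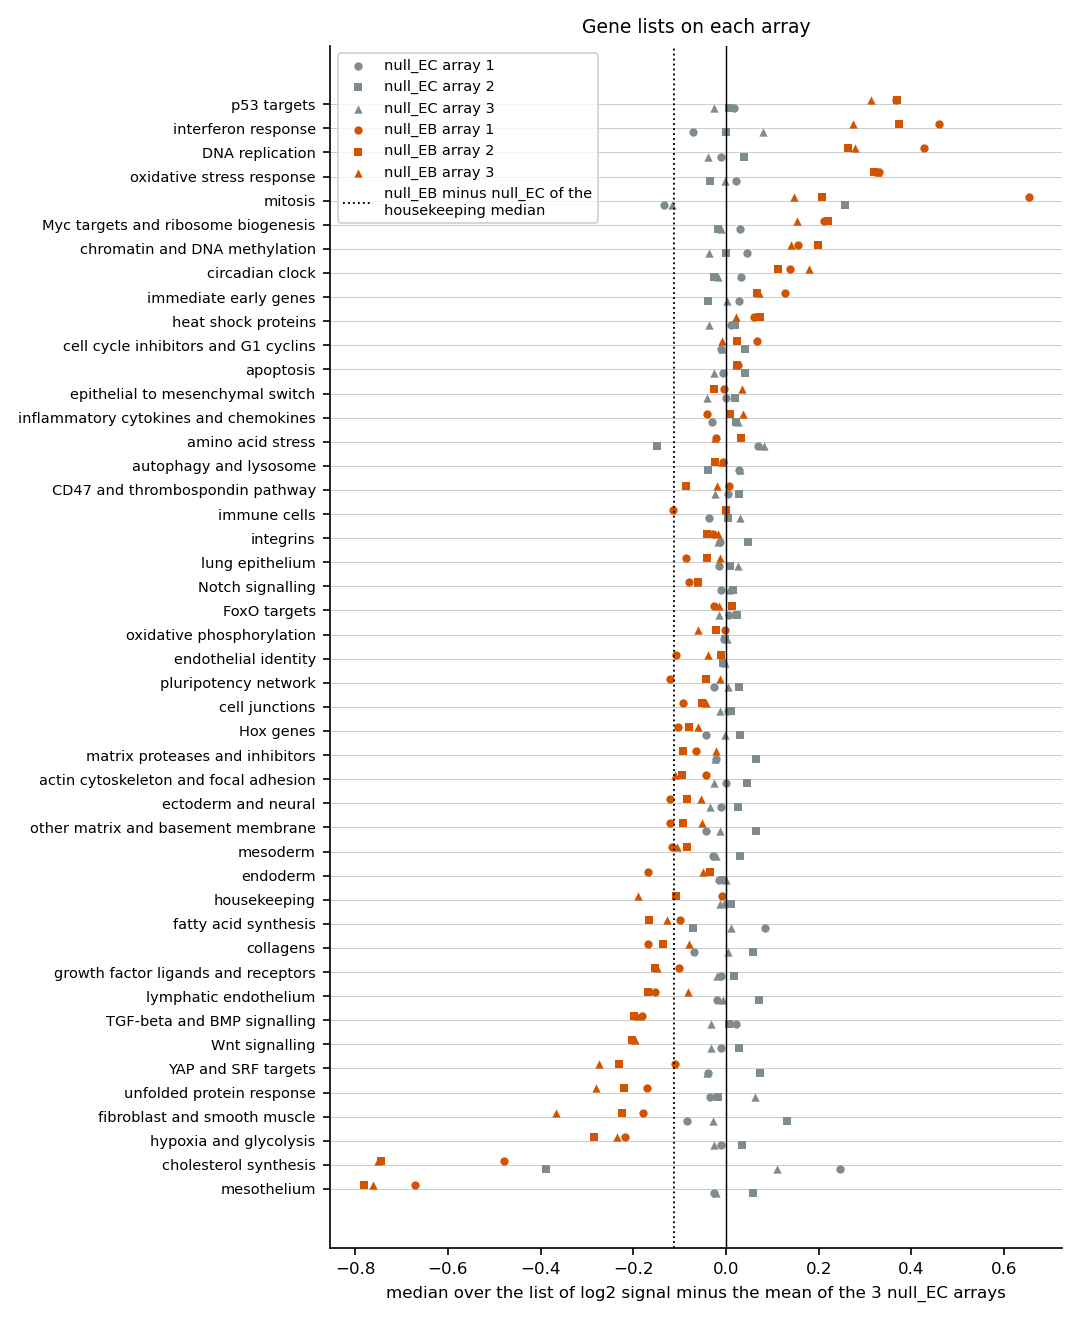
For each of 46 gene lists (rows), points give the median over its members of the log2 signal minus the mean of the 3 null_EC arrays (x axis), 1 point per array, grey for null_EC and orange for null_EB. The dotted line marks the null_EB minus null_EC difference of the housekeeping median, -0.11, on which the lists near 0 depend for their sign. Mesothelium and cholesterol synthesis lie far to the left on the null_EB arrays, and for mitosis null_EC 2 lies among the null_EB arrays.

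Bone morphogenetic protein (BMP) and transforming growth factor beta (TGF-beta) signal through SMAD proteins and induce their own inhibitors, so target genes can be read beside ligands and receptors. Among the targets, Id2, an inhibitor of differentiation factors, had 11.26, 11.25 and 11.24 on the null_EC arrays and 9.89, 9.35 and 9.33 on the null_EB arrays (log2 -1.73, SE 0.126, adjusted p = 5.54e-06), and Smad6, the inhibitory SMAD of the BMP branch, 10.76, 10.80 and 10.82 on the null_EC arrays and 9.49, 9.19 and 9.40 on the null_EB arrays (log2 -1.43, SE 0.0756, adjusted p = 8.82e-07). Smad7 (-1.15), Id3 (-1.25) and Id1 (-0.76) fell too. Among the inhibitors outside the cell, Grem1, gremlin, which blocks BMP ligands, rose 3.79-fold, with 9.37, 9.86 and 9.55 on the null_EC arrays and 11.51, 11.59 and 11.45 on the null_EB arrays (log2 1.92, SE 0.106, adjusted p = 1.13e-06), while Fstl3, which blocks activins, fell (log2 -1.38, SE 0.0649, adjusted p = 4.1e-07). Of the ligands, Bmp6 (-0.83), Tgfb2 (-0.78) and Bmp4 (-0.39) fell and Tgfb1 (0.48) rose. Over the list of 44, 5 were called higher and 22 lower (median -0.17), and its medians were 0.02, 0.007 and -0.03 on the null_EC arrays and -0.18, -0.20 and -0.19 on the null_EB arrays. The calls of Bmp4, Fstl3, Id3, Tgfb1 and Tgfb2 were lost when the error was pooled over the 12 arrays.

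Called genes of Wnt signalling were nearly all lower. Of 42 measured, 1 was called higher and 20 lower (median -0.18). After the housekeeping shift 2 higher and 16 lower calls were left. Lgr5, the R-spondin receptor of many adult stem cells, fell from 8.75 ± 0.216 to 6.48 ± 0.0784, with 8.55, 8.98 and 8.74 on the null_EC arrays and 6.57, 6.44 and 6.44 on the null_EB arrays (log2 -2.27, SE 0.0983, adjusted p = 2.39e-07). Axin2, the feedback gene that reads out beta-catenin activity, had 8.99, 8.57 and 8.73 on the null_EC arrays and 7.50, 7.36 and 7.55 on the null_EB arrays (log2 -1.29, SE 0.0988, adjusted p = 7.66e-06), and Rspo1, the ligand of Lgr receptors, fell by 1.75 on the log2 scale. Wnt5a (-1.58), Wnt4 (-1.20) and Fzd4 (-0.98), ligands and a receptor, fell, and so did the Wnt trap Sfrp1 (-1.85). Ctnnb1, beta-catenin itself, was not called (log2 0.05, SE 0.0583, adjusted p = 0.62), and the coreceptor gene Lrp5 (0.25) was the one higher. Of 25 Notch genes 4 were called higher and 6 lower (median -0.04). The receptors Notch2 (0.30) and Notch3 (0.38) rose and the ligand Jag1 (-0.57), the targets Hes1 (-0.81) and Hey1 (-0.52) and the modifier Lfng (-0.83) fell. The housekeeping shift left 4 higher and 4 lower calls, and the list's median turned to 0.08. In the fit of all 12 arrays the calls of Fzd4, Hes1, Lfng, Lrp5, Notch3 and Sfrp1 were lost.

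**Figure D5:**
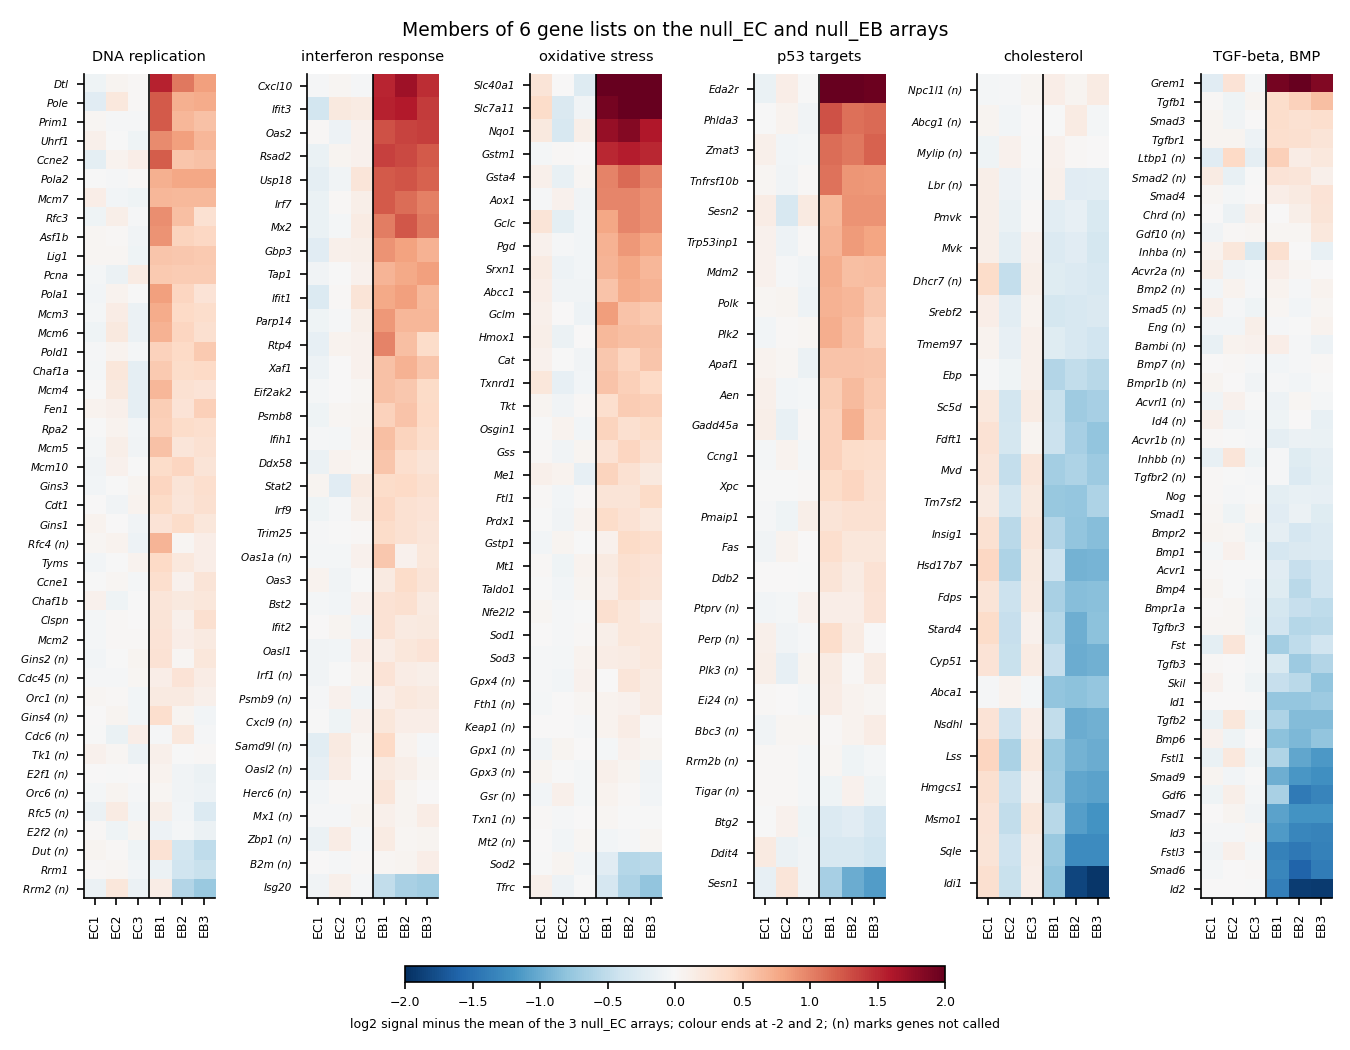
Each row is a gene of 1 of 6 lists and each column an array, null_EC 1 to 3 and null_EB 1 to 3, and the colour is the log2 signal minus the mean of the 3 null_EC arrays, red above and blue below, with the scale ending at -2 and 2. Names followed by (n) were not called. Replication, interferon, oxidative stress and p53 genes are mainly red on the null_EB arrays, and cholesterol and BMP genes mainly blue, with null_EC 2 blue for many cholesterol genes.

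Growth factor ligands and receptors changed in both directions, 16 higher and 20 lower of 50 (median -0.14). The housekeeping shift gave 16 higher and 14 lower, so that the leading direction turned, with a median of -0.03, and the median was -0.08 without null_EC 2. Igfbp3, which binds insulin-like growth factors, had 12.69, 12.71 and 12.72 on the null_EC arrays and 11.25, 10.67 and 10.60 on the null_EB arrays (log2 -1.87, SE 0.14, adjusted p = 6.69e-06), and Igf2 fell 5.78-fold (log2 -2.53, SE 0.127, adjusted p = 5.76e-07), while the receptor Igf1r (0.47) and Irs1, its adaptor, rose (log2 1.07, SE 0.0598, adjusted p = 1.17e-06). A further probe set of Irs1 gave 0.08 (adjusted p = 0.486), so the probe sets of this gene disagree. Hgf, hepatocyte growth factor, rose 3.03-fold at low signal, with 6.08, 5.78 and 5.86 on the null_EC arrays and 7.45, 7.62 and 7.44 on the null_EB arrays, and Kitl, stem cell factor, rose by 0.72. The fibroblast growth factors Fgf18 (-1.41) and Fgf2 (-1.24) fell, and Fgfr1 (0.66) rose. Among 41 immediate early genes 16 were called higher and 8 lower (median 0.08). The phosphatases Dusp4 (1.07) and Dusp6 (1.03), which damp the ERK kinases, and Nr4a1 (0.94) and Egr1 (0.50) rose, whereas Fos (-0.62), Jun (-0.55) and Fosl2 (-0.52), parts of the AP-1 factor, fell. A fit of all 12 arrays lost the calls of Dusp4, Egr1, Fgfr1, Fos, Fosl2, Hgf, Igf2, Irs1, Jun, Kitl and Nr4a1.

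Matrix genes were more often called lower than higher. Of 35 collagens 1 was called higher and 9 lower (median -0.12), with Col12a1 first, Col1a1 (-0.86) and Col11a1 (-0.72) next and Col15a1 (0.37) the one higher. Other matrix and basement membrane genes were split into 7 higher and 13 lower of 40 (median -0.09). The 2 nidogens, linkers of laminin and collagen IV, went opposite ways. Nid2 had 11.69, 11.74 and 11.72 on the null_EC arrays and 9.08, 8.93 and 8.93 on the null_EB arrays (log2 -2.74, SE 0.061, adjusted p = 9.83e-09), and Nid1 9.63, 9.96 and 9.66 on the null_EC arrays and 10.85, 10.73 and 10.77 on the null_EB arrays (log2 1.03, SE 0.086, adjusted p = 1.36e-05). Lama4 (-1.18) and Lox (-1.15), a laminin chain of vessels and a collagen crosslinker, fell, and Vcan (0.70) and Tgfbi (0.75) rose. At equal housekeeping medians 9 were higher and 11 lower, and the list's median turned to 0.03. Of 33 matrix proteases and inhibitors 6 were called higher and 12 lower (median -0.08). Mmp13, a collagenase, had 9.36, 8.84 and 9.01 on the null_EC arrays and 11.11, 11.84 and 11.57 on the null_EB arrays (log2 2.43, SE 0.172, adjusted p = 4.65e-06), and Plau, urokinase, 8.37, 7.94 and 8.23 on the null_EC arrays and 9.79, 9.52 and 9.48 on the null_EB arrays (log2 1.41, SE 0.114, adjusted p = 1.11e-05), whereas the gelatinase Mmp2 (-1.46) and Adamts12 (-1.61) fell. Scaled to the housekeeping genes, the list had 7 higher and 6 lower, and the list's median turned to 0.03. With the error pooled over all 12 arrays the calls of Adamts12, Col11a1, Col15a1, Lama4, Mmp13, Tgfbi and Vcan were lost.

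Integrins, the receptors that tie cells to matrix, were called in both directions. Of 24, 7 were called higher and 6 lower (median -0.03), against 15.0% and 12.4% of all genes. In the fit of genes above the median signal in either group, 5 of 14 integrins were higher and 6 lower. Of all 10177 genes in that fit, 2927 were higher and 2244 lower. The collagen receptor subunits Itga1 and Itga11 fell, Itga1 with 10.14, 10.60 and 10.09 on the null_EC arrays and 8.81, 8.28 and 8.21 on the null_EB arrays (log2 -1.84, SE 0.165, adjusted p = 2.29e-05) and Itga11 by 1.27 on the log2 scale. Itgb3, of the vitronectin receptor, rose 2.64-fold, with 8.48, 8.34 and 8.48 on the null_EC arrays and 9.84, 9.82 and 9.83 on the null_EB arrays (log2 1.40, SE 0.06, adjusted p = 2.39e-07), and Itgb4 (0.97), Itgb8 (0.96) and Itga6 (0.92) rose, of which Itga6 and Itgb4 together form a laminin receptor. Itgav and Itga5, the alpha subunits of the main vitronectin and fibronectin receptors, were not called (-0.09 and -0.04). Equal housekeeping medians gave 7 higher and 5 lower, and the list's median turned to 0.08. Targets of YAP and SRF, factors active in spread and contractile cells, had 2 higher and 16 lower of 36 (median -0.22). The counts moved by more than 1.5 times on leaving out 1 array, to 1 higher without null_EC 3. After the housekeeping shift 4 higher and 11 lower calls were left. Nt5e, the ectoenzyme CD73, had 10.72, 10.90 and 10.77 on the null_EC arrays and 8.97, 8.76 and 8.53 on the null_EB arrays (log2 -2.05, SE 0.101, adjusted p = 5.24e-07), and Amotl2 (-0.57) and Ccn1 (-0.53) fell, while Ccn2, another standard target, was not called (log2 -0.26, SE 0.22, adjusted p = 0.447). Of 40 actin cytoskeleton and focal adhesion genes 9 were called higher and 12 lower (median -0.08), with Diaph1 (0.60) and Tes (0.55) rising and Rnd1 (-1.03), Lims2 (-0.87) and Myh10 (-0.68) falling. In the fit of genes above the median signal, 8 of 39 of these genes were higher and 16 lower. The housekeeping shift left 10 higher and 9 lower calls, and the list's median turned to 0.03. Of 38 cell junction genes 2 were called higher and 10 lower (median -0.08), led by Cdh3 (-1.27), F11r (-0.96) and Cdh11 (-0.89) downward and Jam2 (0.95) upward. At equal housekeeping medians 2 were higher and 7 lower, and the list's median turned to 0.03. Among these the calls of Amotl2, Ccn1, Cdh3, Lims2, Myh10, Nt5e, Rnd1 and Tes were lost in the fit of all 12 arrays.

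Cd47, the deleted gene, had 10.98, 11.11 and 11.02 on the null_EC arrays and 10.99, 10.89 and 10.93 on the null_EB arrays (log2 -0.10, SE 0.06, adjusted p = 0.281). The same probe set read 11.17 ± 0.191 in ESC and 12.12 ± 0.721 in WT_EC, where the arrays gave 12.59, 11.29 and 12.48, so the null arrays lay near the ESC level. Which exons the probe sets read is not given, so a probe set beyond the targeted stretch would check nothing, and the sign of the difference turned with equal housekeeping medians (0.01). A further probe set of Cd47 gave a difference of -0.08 (adjusted p = 0.358). Of 26 genes of the CD47 and thrombospondin pathway 5 were called higher and 8 lower (median -0.02). Scaled to the housekeeping genes, the list had 7 higher and 4 lower, and the list's median turned to 0.09. Thbs2, the thrombospondin most alike to thrombospondin-1, fell 3.71-fold, with 9.46, 10.35 and 9.61 on the null_EC arrays and 8.11, 7.84 and 7.80 on the null_EB arrays (log2 -1.89, SE 0.191, adjusted p = 5.32e-05), while Thbs1 was not called (log2 0.20, SE 0.0733, adjusted p = 0.0718). Sirpa and Cd36, which bind CD47 and thrombospondin-1, were not called (-0.11 and 0.18), and Prkg1, the cGMP-dependent kinase through which nitric oxide acts, fell (log2 -0.66, SE 0.0548, adjusted p = 1.3e-05). The call of Prkg1 was lost when the error was pooled over the 12 arrays.

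The embryoid bodies can be set beside stem cells through a comparison that shares no array with theirs. In ESC against WT_EC, fitted alone, 6250 genes were called (31.3%). Of the 5464 genes called in null_EB against null_EC, 2564 were called there as well, 1931 in the same direction and 633 in the opposite one, so 75.3% had the same sign. Among genes not called in null_EB the share was 54.7%. Of the genes at least 2-fold lower in null_EB, 85 of 100 called there were lower in ESC (85.0%), but of those at least 2-fold higher only 21 of 54 were higher in ESC (38.9%). Prl2c5 and Slc7a11 had ESC levels of 6.07 ± 0.0341 and 6.37 ± 0.131 against 11.16 ± 0.0419 and 11.12 ± 0.168 in null_EB, and the call of Slc7a11 was lost in the fit of all 12 arrays. Kdr, in contrast, was low in both, at 6.91 ± 0.073 in ESC and 7.34 ± 0.0718 in null_EB. These shares describe the genes and were not tested.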

How the data were processed

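RNA of 12 mouse cell samples was measured on Affymetrix gene arrays. The values used are the deposited log2 signals, which the authors made with Affymetrix Expression Console 1.2.1 and RMA, per the submitters' processing notes. The labels' protocol names a human array, while the probe set identifiers match GEO's annotation of the mouse platform. Of 35556 probe sets, 21789 had 1 gene symbol, 1621 several and 12146 none named here, and 21698 of those with 1 gene matched RefSeq. The probe set with the highest mean over the 12 arrays stood for a gene, which left 19938 genes, 999 of them with several probe sets. The number of arrays limits the precision, and no total count applies.

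Differences were fitted with limma 3.58.1 (R 4.3.3, Python 3.11.15) on the 6 arrays of null_EB and null_EC alone, with Benjamini-Hochberg adjustment over all genes and a threshold of 0.05. ESC against WT_EC was fitted on its own 6 arrays. The procedure was checked on simulated data. The comparison, its 46 gene lists and their members were chosen with earlier results of these data known. Older list symbols were matched through RefSeq synonyms. Named genes are Cd47, Myc, Pou5f1, Sox2, Klf4 and Nanog, the 12 largest increases and 12 largest decreases among called genes without overlap of the groups (unnamed gene models, receptor families and small RNAs left out), and up to 3 called members in each direction per list. Called genes outside this rule were chosen after their values were seen: Abca1, Amotl2, Axin2, Bmp4, Bmp6, Bnc1, Car9, Ccn1, Ccne2, Cd34, Cx3cl1, Cxcl12, Cyp51, Dnajc3, Egln1, Egr1, Fdps, Fgf18, Fgf2, Fgfr1, Fzd4, Gbp3, Gclc, Gclm, Gsta4, Gstm1, Hey1, Hmgcs1, Hmox1, Id1, Id3, Ifih1, Igf1r, Il33, Irf7, Irf9, Lss, Mcm3, Mcm6, Mcm7, Mdm2, Mx2, P4ha2, Pcna, Pgd, Plk1, Pola1, Pola2, Ptges, Rfc3, Rsad2, Sdf2l1, Smad7, Srxn1, Upk1b, Upk3b, Usp18, Wnt4, Wnt5a and Wt1. Of the promoter motifs, TTTCNNTTT and an antioxidant element, TGACNNNGC, were added after the data had been seen. The second is not reported. Promoter windows are RefSeq's for GRCm38.p6, the bases shown end at the transcription start, and the build behind the array annotation is not given in the sources used here.

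Alternatives were other sets of arrays in the fit, array weights, other variance priors, filters on dim genes, the mean over probe sets, each probe set by itself, housekeeping or median scaling, the replicate number as a block, and leaving out each array in turn. Same-numbered arrays of the groups had deviations from their group means that correlated over genes at 0.0664, -0.1046 and 0.225, so the numbers were not taken to pair the samples.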

Additional observations from a re-analysis of the deposited data

How the results depend on the processing

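The number of genes called in null_EB against null_EC, 5464, fell to 1077 with the error pooled over all 12 arrays and rose to 8223 with array weights. Leaving out each array in turn gave 3960 to 5972. The number called and at least 2-fold apart, 347, was 337 to 382 without each array. Of the listed genes, 138 were called with all 12 arrays, and 529 to 668 without each of the 6 arrays. The share of called genes with the same direction in ESC against WT_EC, 75.3%, was 68.8% for genes at least 2-fold different and 71.5% to 78.4% without each ESC or WT_EC array.

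With the replicate number as a block, 5386 genes were called, 5136 of them also called without it. Whether the numbers pair the samples is not known. As both groups hold the same numbers, the block leaves the size of a difference unchanged.

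Equal housekeeping medians turned the differences of Cd47 to 0.015 and of Sox2 to 0.013, neither of which was called. They also turned the median differences of FoxO targets to 0.072, Hox genes to 0.032, Notch signalling to 0.076, actin cytoskeleton and focal adhesion to 0.029, cell junctions to 0.033, ectoderm and neural to 0.026, endoderm to 0.022, endothelial identity to 0.063, housekeeping to 0.003, integrins to 0.082, lung epithelium to 0.079, matrix proteases and inhibitors to 0.028, mesoderm to 0.024, other matrix and basement membrane to 0.025, oxidative phosphorylation to 0.07 and pluripotency network to 0.054. The median of FoxO targets was 0.019 over genes above the median signal in either group. That of apoptosis was -0.006 over genes of log2 at least 6 on at least 3 arrays, -0.01 over genes above the median signal and -0.016 without null_EB replicate 2. The cause of these moves was not tested, apart from the shift itself, which moves every gene alike. Genes of low signal have differences that background can compress, and 3 arrays a group limit what small differences can show.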

Other observations

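Genes of the circadian clock were called higher in 8 and lower in 1 of 19 cases (median 0.11). Nr1d1 and Nr1d2, repressors in the feedback loop of the clock, rose by 0.74 and 0.55, and Ciart, a further repressor, rose by 0.48. The list's medians were 0.03, -0.03 and -0.02 on the null_EC arrays and 0.14, 0.11 and 0.18 on the null_EB arrays, without overlap, and the list's median difference was 0.17 without null_EC 1. Of 37 chromatin and DNA methylation genes 19 were called higher and 2 lower (median 0.17), with Hells (1.07), a remodeller needed for DNA methylation, and Ezh2 (0.49) and Ezh1 (0.51), the alternative methyltransferases of the Polycomb complex. The higher count of that list was 11 without null_EC 2, 10 without null_EC 3 and 10 without null_EB 2. The calls of Ciart and Ezh1 were lost with all 12 arrays.

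Heat shock proteins were called in both directions, 7 higher and 5 lower of 22 (median 0.06), and 3 were higher without null_EC 2 and 3 without null_EB 2. The shares, 31.8% and 22.7%, were above the 15.0% and 12.4% of all genes, but 0 members had low signal in both groups. In the fit of genes above the median signal in either group, 8 of 22 were higher and 5 lower. Of all 10177 genes in that fit, 2927 were higher and 2244 lower, so the heat shock counts lay near that background. Hspa4l, a cofactor of Hsp70 chaperones, rose by 0.45, and Cryab, a small heat shock protein, fell by 0.65 on the log2 scale. Of 41 autophagy and lysosome genes 10 were called higher and 7 lower, Npc1 (0.55), the lysosomal cholesterol transporter, and Atg7 (0.46) rising and Atg3 (-0.73) falling, where Atg7 and Atg3 act in turn in the conjugation of LC3. With equal housekeeping medians 2 were lower and the list's median turned from -0.015 to 0.098, and without null_EB 1 the number lower was 11. In the fit of genes above the median signal, 9 of 40 autophagy and lysosome genes were higher and 9 lower, also near the background of that fit. FoxO targets had 12 higher and 7 lower of 34 (median -0.04, which turned to 0.07 with equal housekeeping medians, at 12 higher and 4 lower), led by Txnip (1.21), which binds thioredoxin, and Arrdc3 (0.79), while Sesn1 fell by 0.93 on the log2 scale. Of 20 genes of the epithelial to mesenchymal switch 2 were called higher and 5 lower (median 0.02), with Snai2 (1.57) and Twist2 (-0.80), both repressors of epithelial genes, in opposite directions. The calls of Arrdc3, Cryab, Hspa4l, Npc1, Atg3, Sesn1 and Txnip were lost with all 12 arrays.

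Genes with more than low signal were also read by chromosome. On chromosome 17 the median difference was 0.098, and 170 of 510 genes were called higher (33.3%) and 66 lower (12.9%). On the other chromosomes 20.2% to 28.5% of such genes were higher and 15.3% to 23.4% lower. Its medians were 0.007, -0.007 and -0.001 on the null_EC arrays and 0.093, 0.107 and 0.105 on the null_EB arrays. The medians of the other chromosomes lay between -0.014 and 0.054. In null_EC minus WT_EC, which uses the same null_EC arrays, the median was 0.301 on chromosome 17, 0.378 on chromosome 19 and 0.217 on chromosome 6. These chromosome values were noticed in the data and were not tested.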
